A study of Danio rerio with 4 samples.

Results

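The genes described here encode the protein machinery of pre-mRNA splicing and its best known regulators. They are the 73 gene symbols in the deposited tables that begin with srsf and a digit, hnrnp, snrp, sf3a or sf3b and a digit, prpf and a digit, or u2af, out of 28697 symbols in all. By name they fall into 17 SR protein genes, 20 hnRNP genes, 8 Sm core genes, 4 genes of U1 and U2 snRNP proteins, 9 SF3A and SF3B genes, 3 U2AF genes and 12 PRPF genes. The rule uses symbols and no measured value, though it was drawn up with earlier results of these data known.

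Whole zebrafish embryos (Danio rerio) were injected with 2 nl at the single-cell stage and profiled by sequencing of poly(A) RNA. The rbm14-MO embryos received morpholinos, antisense oligomers that block translation or splicing of their target, against rbm14a (4 ng) and rbm14b (4 ng). The ctrl-MO embryos received 8 ng of a control morpholino, and every embryo also received 300 pg of GFP mRNA. The groups were rbm14-MO at 24 hours post fertilization (hpf), ctrl-MO at 24 hpf, rbm14-MO at 10 hpf and ctrl-MO at 10 hpf, each a single library from 50 pooled embryos. The labels give neither the mode of action of the rbm14 morpholinos nor the strain, and no uninjected or rescued embryos were analysed here. Since each group is a single library, differences have no replicate check, no p-value is given, and every comparison describes the libraries compared.

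Splicing removes introns in a cycle in which small nuclear ribonucleoproteins (snRNPs) assemble on each intron. U1 binds the start of the intron, U2AF and then U2 with its SF3A and SF3B subunits bind near its end, and the tri-snRNP of U4, U6 and U5, to which several PRPF proteins belong, brings in the catalytic core. The Sm proteins form a ring around the small nuclear RNAs of U1, U2, U4 and U5. SR proteins, which carry an arginine and serine rich domain, mostly help exons to be recognised, while hnRNPs coat pre-mRNA and often oppose them. Early embryos start with mRNAs stored in the egg and later replace them with their own. Rbm14 is itself an RNA-binding protein, and the series concerns its part in dorsoventral patterning.

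Levels are in TPM, a length-corrected share of the library scaled to a fixed total, as the authors deposited them, summed here over the transcripts of a symbol. TPM keeps no depth, so the depth of each library is unknown and no counting interval was computed. Ratios between libraries were scaled by a trimmed mean of log2 ratios over all genes and taken on log2(TPM + 0.5), which understates differences of low genes. A gene was called higher or lower when it differed by at least 2-fold and reached 5 TPM in the higher library. Both morpholino targets had mRNA in every library. The level of rbm14a was 82.7 TPM in rbm14-MO and 70.5 TPM in ctrl-MO embryos at 24 hpf, against 254 TPM in rbm14-MO and 170 TPM in ctrl-MO embryos at 10 hpf. The level of rbm14b was 28.2 TPM in rbm14-MO and 21.0 TPM in ctrl-MO embryos at 24 hpf, against 19.3 TPM in rbm14-MO and 28.8 TPM in ctrl-MO embryos at 10 hpf. A morpholino that blocks translation need not lower its target's mRNA, so these levels do not check the labels.

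The module was abundant in every library. Of the 73 genes, 69 had at least 5 TPM and 27 had at least 100 TPM in all 4 libraries, and none was listed at 0. Together they held 2.16% of all TPM in rbm14-MO and 1.98% in ctrl-MO embryos at 24 hpf, against 8.29% in rbm14-MO and 7.42% in ctrl-MO embryos at 10 hpf. A single gene, hnrnpa0l, which belongs by name to the hnRNP A0 group of RNA-binding proteins, stood at 6411 TPM in rbm14-MO and 6407 TPM in ctrl-MO embryos at 24 hpf, and at 35085 TPM in rbm14-MO and 29678 TPM in ctrl-MO embryos at 10 hpf. It ranked 3 among all symbols in both 10 hpf libraries and held 42.3% of the module's TPM in rbm14-MO and 40.0% in ctrl-MO embryos at that stage. Without it the other 72 genes held 1.52%, 1.34%, 4.78% and 4.45% of all TPM in rbm14-MO and ctrl-MO embryos at 24 hpf and then in rbm14-MO and ctrl-MO embryos at 10 hpf. The next most abundant member was hnrnpaba, an hnRNP A/B gene, with 3173 TPM in rbm14-MO and 2686 TPM in ctrl-MO embryos at 24 hpf, against 10533 and 9836 TPM at 10 hpf. Among SR genes the highest levels were those of srsf1a and srsf2a, which encode founding members of the SR family. The gene srsf1a had 673 TPM in rbm14-MO and 787 TPM in ctrl-MO embryos at 24 hpf, against 2327 and 2305 TPM at 10 hpf.

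The members at the low end were hnrnph3, hnrnpa3, hnrnph1 and srsf7b, the only ones below 5 TPM in at least 1 library. Of these, hnrnpa3 stayed below 1 TPM in all 4 libraries.

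**Figure D1:**
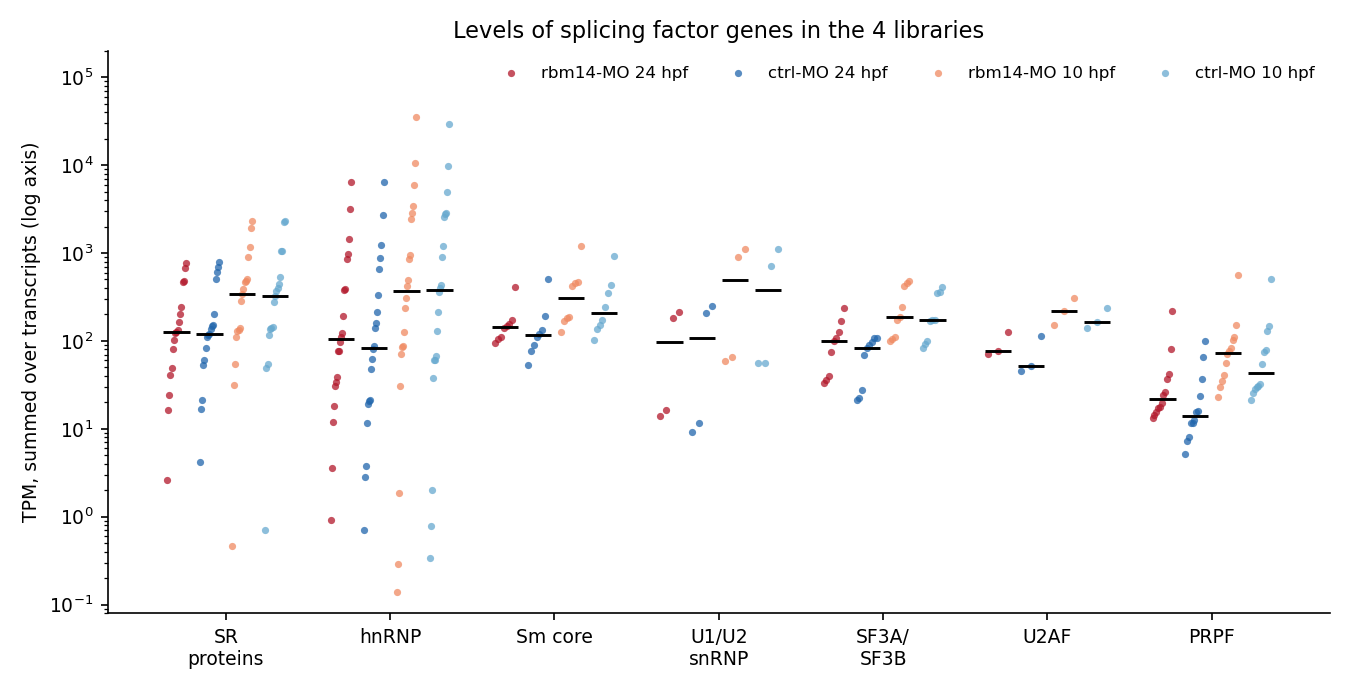
Level of each of the 73 genes in TPM (log axis), by subfamily and library, with 1 point per gene and a black line at the median of the subfamily. The median lines of the 24 hpf libraries lie below those of the 10 hpf libraries in all 7 subfamilies, and hnrnpa0l is the highest point in each library.

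The comparison of stages sets the module side by side as the embryo passes from the end of gastrulation to the early differentiated body. At 24 hpf 39 of 69 measured members were lower than at 10 hpf in ctrl-MO embryos and none was higher, a share of 56.5% beside 23.1% lower among all symbols. In rbm14-MO embryos 62 of 70 were lower and 1 was higher, a share of 88.6% lower beside 22.1% among all symbols. The share of all symbols called higher was 35.4% in rbm14-MO and 29.6% in ctrl-MO embryos. Ratios above 0 were found for 3 of 72 members in rbm14-MO embryos, beside 63.5% of all symbols, and ratios below 0 for 65 of 72 members in ctrl-MO embryos, beside 45.1% of all symbols. The median log2 ratio of the members was −1.68 in rbm14-MO and −1.08 in ctrl-MO embryos, where all symbols with at least 1 TPM in either library had medians of 0.63 and 0.21. Among symbols that reached 100 TPM at either stage the medians were −0.61 over all symbols and −1.79 over 52 members in rbm14-MO embryos, and −0.20 and −1.04 over 49 members in ctrl-MO embryos. The size of the difference between morpholino groups depends on the scaling, which removed shifts of 0.37 in rbm14-MO and −0.52 in ctrl-MO embryos. Without rescaling the order turns, with 51 members lower in rbm14-MO and 57 in ctrl-MO embryos and medians of −1.31 and −1.61. Ratios below 0 were then found for 69 of 72 members in each group, beside 29.7% and 55.7% of all symbols. With loess scaling 43 and 31 members were lower. Ratios below 0 were then found for 66 and 64 of 72, beside 36.3% and 46.2% of all symbols. The shares of all symbols called lower under these scalings are not given here. Whether the fall differs between rbm14-MO and ctrl-MO embryos was not tested. The counts by subfamily and the folds of single genes below carry the same limit. In whole embryos fewer cells of a type and less RNA per cell cannot be told apart. Both stage comparisons use different libraries, but each shares a library with every morpholino comparison below.

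The hnRNP genes, whose products package pre-mRNA and regulate splice site choice, were lower at 24 hpf in 17 of 18 measured genes in rbm14-MO and in 13 of 17 in ctrl-MO embryos. Over all symbols 22.1% and 23.1% were lower. The lowest ratio in rbm14-MO embryos was that of hnrnpa0b, with 856 TPM at 24 hpf and 5908 TPM at 10 hpf (8.90-fold lower). In ctrl-MO embryos the same gene had 885 TPM at 24 hpf and 4949 TPM at 10 hpf (3.89-fold lower). The gene hnrnpabb stood at 392 and 2425 TPM at 24 and 10 hpf in rbm14-MO embryos (7.97-fold lower). In ctrl-MO embryos it stood at 329 and 2596 TPM (5.49-fold lower).
The gene hnrnpub, one of the paralogs for hnRNP U, a nuclear matrix protein, had the lowest ratio in ctrl-MO embryos, with 142 TPM at 24 hpf and 1187 TPM at 10 hpf (5.82-fold lower). In rbm14-MO embryos it had 193 TPM at 24 hpf and 954 TPM at 10 hpf (6.37-fold lower). The abundant hnrnpa0l was 7.05-fold lower in rbm14-MO and 3.22-fold lower in ctrl-MO embryos. With loess scaling its log2 ratio was −2.32 in rbm14-MO and −2.81 in ctrl-MO embryos, and without rescaling −2.45 and −2.21. For hnrnpub, hnrnpabb and hnrnpl2 the fall was larger in ctrl-MO embryos both without rescaling and with loess scaling. For hnrnpa0b it was larger in rbm14-MO embryos without rescaling (−2.79 and −2.48), but nearly equal with loess scaling (−2.55 in rbm14-MO and −2.58 in ctrl-MO embryos). Of the further named genes, hnrnpl2 was 5.15-fold lower in rbm14-MO and 3.45-fold lower in ctrl-MO embryos, and hnrnph1l was 3.39-fold lower in ctrl-MO embryos. The exception was hnrnph3, with 11.9 TPM at 24 hpf and 0.29 TPM at 10 hpf in rbm14-MO embryos (13.3-fold higher). The size of this fold is largely set by the pseudocount of 0.5 TPM, and with a 20 TPM floor hnrnph3 was not called. In ctrl-MO embryos it had 3.73 and 0.78 TPM, under the 5 TPM needed for a call.

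All 4 genes of U1 and U2 snRNP proteins were lower at 24 hpf in both rbm14-MO and ctrl-MO embryos, beside 22.1% and 23.1% of all symbols. Their median log2 ratios were −2.63 and −1.66. The gene snrpa, for the U1 protein that binds a stem loop of U1 RNA, had 213 TPM at 24 hpf and 1100 TPM at 10 hpf in rbm14-MO embryos (6.63-fold lower). In ctrl-MO embryos it had 248 and 1110 TPM. The gene snrpc, for the U1 protein that steadies pairing with the 5′ splice site, had 180 TPM at 24 hpf and 912 TPM at 10 hpf in rbm14-MO embryos (6.51-fold lower), and 206 and 705 TPM in ctrl-MO embryos. The U2 protein genes were rarer, with snrpa1 at 14.0 and 66.0 TPM in rbm14-MO embryos (5.88-fold lower) and at 9.28 and 56.4 TPM in ctrl-MO embryos (4.09-fold lower).

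The Sm core genes had the medians nearest 0 between the stages. At 24 hpf 5 of 8 were lower in rbm14-MO and 2 of 8 (25.0%) in ctrl-MO embryos, beside 22.1% and 23.1% of all symbols. The share in ctrl-MO embryos lay near that of all symbols. In ctrl-MO embryos the median was −0.50 and 3 genes, snrpe, snrpf and snrpg, had ratios above 0 (0.09, 0.34 and 0.18). The gene snrpd3 had the lowest ratio, with 112 TPM at 24 hpf and 459 TPM at 10 hpf in rbm14-MO embryos (5.26-fold lower), and 76.7 and 245 TPM in ctrl-MO embryos.

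All 9 SF3A and SF3B genes were lower at 24 hpf in rbm14-MO embryos and 6 of 9 in ctrl-MO embryos. Beside these and the U2AF and PRPF counts below, 22.1% and 23.1% of all symbols were lower. The subunit gene sf3b1, whose product grips the branch site of the intron, had 235 and 475 TPM at 24 and 10 hpf in rbm14-MO embryos and 108 and 406 TPM in ctrl-MO embryos. Its log2 ratio was −1.38 in each under the main scaling. Without rescaling it was −1.01 in rbm14-MO and −1.90 in ctrl-MO embryos, and with loess scaling −0.69 and −1.32. The 3 U2AF genes, for the protein pair that reads the end of the intron, were all lower in rbm14-MO embryos and 2 of 3 in ctrl-MO embryos. Of 12 PRPF genes 10 were lower in rbm14-MO and 6 in ctrl-MO embryos. The lowest ratio was that of prpf31, for a U4 and U6 snRNP protein that is mutated in human retinitis pigmentosa. It stood at 24.6 and 154 TPM at 24 and 10 hpf in rbm14-MO embryos (7.91-fold lower) and at 15.5 and 129 TPM in ctrl-MO embryos (5.68-fold lower). Without rescaling its log2 ratios were −2.62 in rbm14-MO and −3.02 in ctrl-MO embryos, and with loess scaling −2.46 and −2.28. The gene prpf8, for the large U5 protein at the heart of the spliceosome, had 218 and 568 TPM in rbm14-MO embryos and 99.6 and 506 TPM in ctrl-MO embryos (3.52-fold lower).

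The SR genes were lower at 24 hpf in 14 of 16 measured genes in rbm14-MO embryos and in 6 of 16 in ctrl-MO embryos. Over all symbols 22.1% and 23.1% were lower. The SR medians were −1.63 and −0.67. Without rescaling these medians were −1.27 and −1.19, and the summed TPM of the SR genes was 2.54-fold higher at 10 than at 24 hpf in both rbm14-MO and ctrl-MO embryos. The gene srsf3a had the lowest ratio in rbm14-MO embryos, with 122 and 477 TPM at 24 and 10 hpf (log2 ratio −2.33). The gene srsf4 had the lowest ratio in ctrl-MO embryos, with 112 and 400 TPM (−1.31). The genes srsf5b and srsf10b stayed within 2-fold in both morpholino groups, with ratios of −0.54 and −0.70 in rbm14-MO and 0.30 and −0.30 in ctrl-MO embryos.

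**Figure D2:**
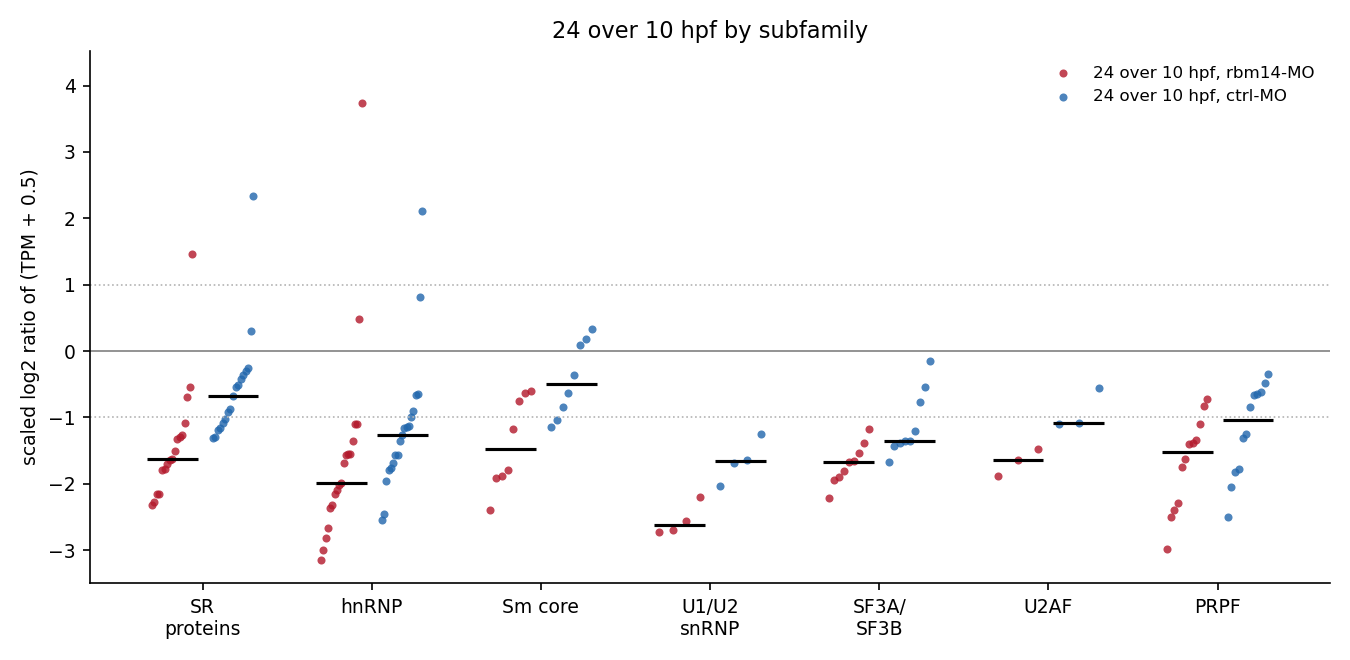
Scaled log2 ratio of 24 over 10 hpf for each member with at least 1 TPM at either stage, by subfamily, in rbm14-MO and in ctrl-MO embryos, with black lines at the medians and dotted lines at 2-fold. All 7 subfamily medians lie below 0 in both morpholino groups, and the U1 and U2 snRNP protein genes have the lowest medians (−2.63 and −1.66).

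At 24 hpf the morpholino comparison shows how the module differed between rbm14-MO and ctrl-MO embryos once tissues differentiate. The subfamilies had different medians. That of the SR genes was −0.70 on the log2 scale, while PRPF and SF3A or SF3B genes had medians of 0.06 and 0.02. Without rescaling the SR median was −0.06 and the PRPF median 0.68, and with loess scaling they were −0.39 and 0.08, with the hnRNP median then the highest at 0.14. Only srsf6a, hnrnpr and srsf5a were called, all as lower. These were 3 of 70 measured members (4.29%), beside 8.85% of all symbols called lower. None was called higher, beside 7.01% of all symbols. Ratios below 0 were found for 51 of 72 members, beside 45.2% of all symbols. At or above 100 TPM they were found for 31 of 39 members, beside 69.3% of all symbols. Without rescaling 18 of the 72 members were below 0, beside 18.2% of all symbols, and with loess scaling 36 were, beside 43.6%. The members' median of −0.23 stood against 0.08 for all symbols, and at or above 100 TPM the medians were −0.40 for 39 members and −0.35 for all symbols.

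The SR gene srsf6a had 81.0 TPM in rbm14-MO and 135 TPM in ctrl-MO embryos at 24 hpf (2.59-fold lower). At 10 hpf it had 281 and 277 TPM. The SR gene srsf5a had 468 TPM in rbm14-MO and 606 TPM in ctrl-MO embryos at 24 hpf (2.02-fold lower). Of the 17 SR genes, 15 had ratios below 0, beside 45.2% of all symbols and 69.3% of those at or above 100 TPM. The genes srsf6b and srsf11 were the ones above 0. Without rescaling srsf1b, srsf2a, srsf4, srsf5b and srsf10b were above 0 too. The gene srsf6b had 205 TPM in rbm14-MO and 120 TPM in ctrl-MO embryos (0.13), and srsf11, for an SR protein known in mammals to bind U2AF, had 243 and 147 TPM (0.09). Just outside the 2-fold limit was srsf2b, with 41.3 TPM in rbm14-MO and 53.3 TPM in ctrl-MO embryos (1.998-fold lower). The gene srsf1a, for an SR protein that is both a general splicing factor and a regulator of splice site choice, had 673 and 787 TPM (−0.86), and srsf3a and srsf3b both had ratios of −0.94. The low-level srsf7b, at 2.64 and 4.19 TPM, was too rare to be called.

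The hnRNP genes had a median of −0.20 at 24 hpf. The gene hnrnpr, for a close relative of the RNA-binding protein Syncrip, had 98.2 TPM in rbm14-MO and 158 TPM in ctrl-MO embryos (2.50-fold lower). The other end was hnrnph3, with 11.9 TPM in rbm14-MO and 3.73 TPM in ctrl-MO embryos (0.96). The most abundant member, hnrnpa0l, had a ratio of −0.64, which is the size of the scaling shift, since its TPM values were nearly equal. With loess scaling its ratio was 0.50.

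The Sm core and the U1 and U2 snRNP protein genes were below 0 in 7 of 8 and in 4 of 4 genes. Beside them stood 45.2% of all symbols and 69.3% of those at or above 100 TPM. Without rescaling their medians were above 0, at 0.19 and 0.14. The Sm gene snrpb had 409 TPM in rbm14-MO and 506 TPM in ctrl-MO embryos (−0.95), and snrpd2 had 105 and 52.8 TPM (0.35). The U1 gene snrpa had 213 and 248 TPM (−0.86), and the U2 gene snrpa1 had 14.0 and 9.28 TPM (−0.04). Among U2 subunits sf3a2 had 75.5 and 83.3 TPM (−0.78) and sf3b5 had 98.8 and 108 TPM (−0.77), whereas sf3b1 had 235 and 108 TPM (0.48). The U2AF genes lay between −0.48 for u2af1 and −0.00 for u2af2b. Among PRPF genes 8 of 12 were above 0, beside 54.8% of all symbols. They were led by prpf4ba, for a kinase of the tri-snRNP, with 13.2 TPM in rbm14-MO and 5.11 TPM in ctrl-MO embryos (0.68). Next was prpf8 with 218 and 99.6 TPM (0.49). The lowest PRPF gene was prpf38b, with 41.8 and 37.2 TPM (−0.47).

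These directions rest on the scaling, which subtracted a shift of 0.64 at 24 hpf. Without it the member median was 0.38, none of the 3 lower calls stood, and 4 genes were called higher, namely hnrnph3 (1.56), prpf4ba (1.28), prpf8 (1.13) and sf3b1 (1.12), against 0 lower. Without rescaling 81.7% of all symbols had ratios above 0, and the share of all symbols called higher is not given here. With loess scaling srsf5a stood at −0.39. With the most abundant transcript alone srsf5a, at a log2 ratio of −0.997, and hnrnpr were no longer called, and srsf6a still was.

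**Figure D3:**
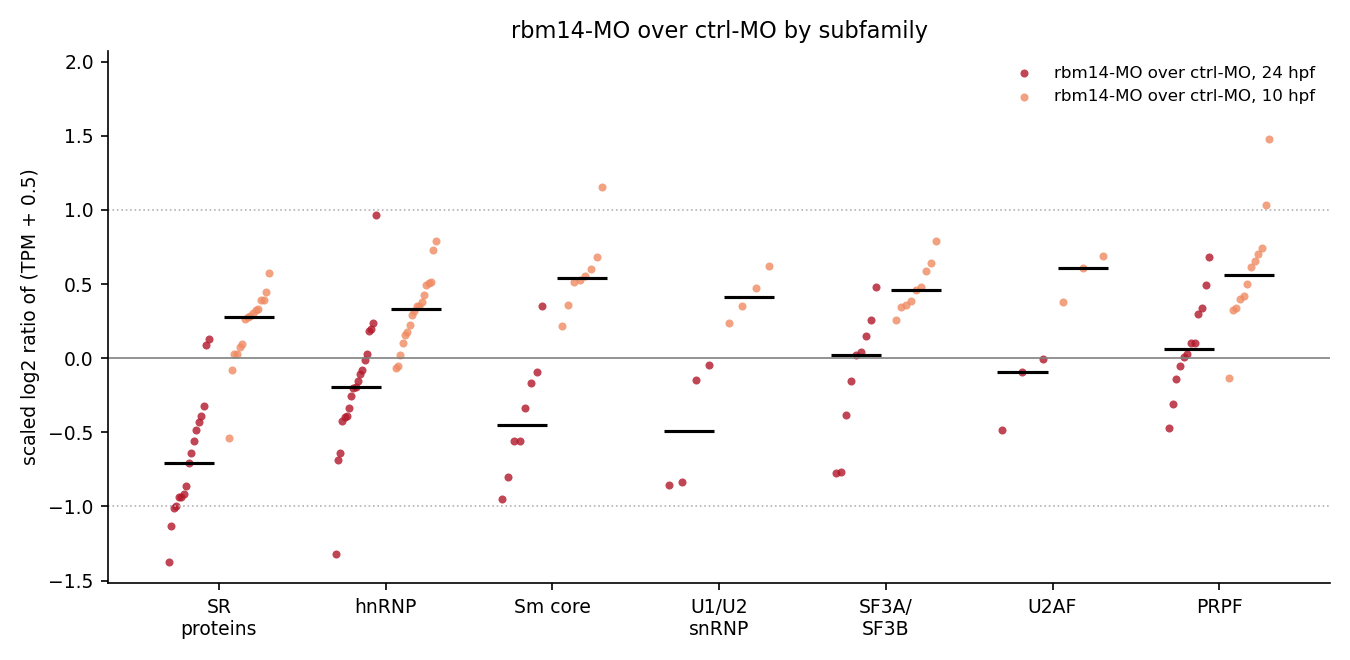
Scaled log2 ratio of rbm14-MO over ctrl-MO for each member with at least 1 TPM in either library, by subfamily, at 24 and at 10 hpf, with black lines at the medians and dotted lines at 2-fold. At 24 hpf the SR median is the lowest (−0.70) and the PRPF median the highest (0.06), and at 10 hpf all 7 medians are above 0, with the SR median the lowest (0.28). Without rescaling the 24 hpf medians other than the SR median lie above 0, and with loess scaling the 10 hpf SR median is −0.03.

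At 10 hpf the same comparison addresses the end of gastrulation, when the dorsoventral pattern has been laid down. Most members stood somewhat higher in rbm14-MO than in ctrl-MO embryos, with 65 of 70 ratios above 0 and a median of 0.38. Without rescaling 54 of 70 ratios were above 0 with a median of 0.13, beside 30.4% of all symbols above 0, and with loess scaling 48 were, also with a median of 0.13, beside 45.7% of all symbols. Of 69 measured members 3 were called higher (4.35%) and none lower, beside 3.57% of all symbols called higher and 5.56% called lower. All symbols with at least 1 TPM had a median of −0.06 and 45.9% of ratios above 0. Among the 1126 symbols at or above 100 TPM, however, the median was 0.35 with 79.8% above 0, against 0.38 with 49 of 52 above 0 for the members at that level. The members' median lay near that of all symbols at this level.

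The 3 called genes were prpf3, snrpd3 and prpf4ba. The gene prpf3, for a U4 and U6 snRNP protein, had 70.2 TPM in rbm14-MO and 29.6 TPM in ctrl-MO embryos at 10 hpf (2.79-fold higher). At 24 hpf it had 15.5 TPM in rbm14-MO and 8.01 TPM in ctrl-MO embryos (0.30). The Sm gene snrpd3 had 459 TPM in rbm14-MO and 245 TPM in ctrl-MO embryos (2.23-fold higher). The gene prpf4ba had 55.7 TPM in rbm14-MO and 32.2 TPM in ctrl-MO embryos (2.04-fold higher). Without rescaling only prpf3 stayed past 2-fold, with snrpd3 at 0.91 and prpf4ba at 0.78, and with loess scaling snrpd3 stood at 0.83 and prpf4ba at 0.87. With a pseudocount of 5 TPM prpf4ba stood at 0.93.

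By subfamily the 10 hpf medians were 0.61 for U2AF, 0.56 for PRPF, 0.54 for Sm core, 0.46 for SF3A and SF3B, 0.41 for U1 and U2 snRNP proteins, 0.33 for hnRNP and 0.28 for SR genes. All 8 Sm core, 4 U1 and U2, 9 SF3A and SF3B and 3 U2AF genes had ratios above 0, beside 45.9% of all symbols. That share was 67.5% among symbols at or above 20 TPM and 79.8% among those at or above 100 TPM. Without rescaling snrpa and snrpg lay just below 0 (−0.01 and −0.03). The subunit genes sf3b6 (243 TPM in rbm14-MO and 167 TPM in ctrl-MO embryos, 0.79) and u2af2a (220 and 162 TPM, 0.69) led their groups. The hnRNP gene with the highest ratio was hnrnpd, with 87.9 and 60.3 TPM (0.79), and the lowest with at least 1 TPM was hnrnpub, with 954 and 1187 TPM (−0.06). The lowest SR gene was srsf10a, with 31.5 TPM in rbm14-MO and 54.7 TPM in ctrl-MO embryos (−0.54), and the highest was srsf4, with 500 and 400 TPM (0.57). The lowest PRPF gene was prpf39, for a U1-associated protein, with 112 and 146 TPM (−0.13).

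Many SR genes are known in mammals to make, beside the coding mRNA, transcripts with a premature stop that limit their own protein. The deposited tables list 252 transcripts for the 73 genes, without saying which are coding, and 54 genes have more than 1. For shares the main transcript is the one with the highest mean TPM over the libraries, and its share needs no scaling between libraries. For counts of a change it is the most abundant transcript within each library. None of the 50 members with several transcripts and at least 5 TPM in both libraries changed its main transcript with a share difference of at least 20 percentage points in any of the 4 comparisons. Over all symbols this happened in 4.82% and 2.62% of genes between morpholinos at 24 and 10 hpf, and in 3.37% and 4.96% between stages in rbm14-MO and ctrl-MO embryos. With no minimum difference 1 member, hnrnpm, had another main transcript in rbm14-MO than in ctrl-MO embryos at 24 hpf, and also between the stages in each morpholino group. Of this gene for a regulator of alternative splicing, the transcript ENSDART00000137689 led with 112 TPM in rbm14-MO embryos at 24 hpf, where it had 38.6 TPM in ctrl-MO embryos. A share difference of at least 20 points in any transcript, whether or not the main one changed, was found between morpholinos for 1 of 50 members at 24 hpf, beside 11.8% of all symbols, and for 2 at 10 hpf, beside 6.65%. Between the stages it was found for 2 members in rbm14-MO embryos, beside 9.76% of all symbols, and for 2 in ctrl-MO embryos, beside 12.6%.

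Summed over the SR genes, the main transcripts held a smaller share of TPM in the 24 hpf libraries, and the smallest in rbm14-MO embryos. Over the 15 SR genes with several transcripts and at least 5 TPM in every library, transcripts other than the main one summed to 973 TPM in rbm14-MO and 888 TPM in ctrl-MO embryos at 24 hpf, against 1882 TPM and 1857 TPM at 10 hpf. That was 27.1% and 23.9% of those genes' TPM at 24 hpf, and 20.4% and 19.5% at 10 hpf. At 24 hpf the main share was lower in rbm14-MO than in ctrl-MO embryos for 13 of the 15 genes (86.7%), beside 49.3% of all symbols and 58.5% of those whose share differed at all, and it was lower by at least 5 percentage points for 6 (40.0%), beside 23.1%. The other members tilted the same way, with 24 of 35 lower (68.6%), among them 10 of 14 hnRNP genes (71.4%), and 28.6% of each set lower by at least 5 points. The median difference was −4.18 points for SR genes, −1.25 points for the 35 other members and 0.00 for all symbols. At 10 hpf it was lower for 8 of the 15, beside 46.4% of all symbols, and lower by at least 5 points for 2, beside 19.1%. It was higher by at least 5 points for 4 of the 15 (26.7%), beside 14.9% of all symbols. Between the stages it was lower at 24 hpf for 10 of the 15 in rbm14-MO embryos, beside 38.8% of all symbols, and for 9 of the 15 in ctrl-MO embryos, beside 34.2%. Of symbols whose share differed at all, 44.4% and 40.0% were lower. Among hnRNP genes 11 of 14 were lower in rbm14-MO and 4 of 14 in ctrl-MO embryos. The SR genes had more TPM at 10 hpf, so those libraries weighed more in picking the main transcript. That favours a lower share at 24 hpf, so the stage differences cannot be told apart from it.

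The gene srsf4 showed the widest span. Its main transcript ENSDART00000165033 held 59.3% of the gene's TPM in rbm14-MO and 68.1% in ctrl-MO embryos at 24 hpf, but 93.2% in both libraries at 10 hpf. Its minor transcript ENSDART00000160531 had 30.2 TPM in rbm14-MO and 19.6 TPM in ctrl-MO embryos at 24 hpf, against 14.7 and 12.3 TPM at 10 hpf, while the gene as a whole was lower at 24 hpf. The main srsf3a transcript held 72.9% in rbm14-MO and 86.2% in ctrl-MO embryos at 24 hpf, and 91.6% and 94.7% at 10 hpf.
A minor srsf3a transcript, ENSDART00000154587, had 17.7 TPM in rbm14-MO and 16.0 TPM in ctrl-MO embryos at 24 hpf, against 4.94 and 1.23 TPM at 10 hpf. The main srsf3b transcript held 34.9% and 43.4% at 24 hpf, against 57.5% and 60.1% at 10 hpf. Another srsf3b transcript, ENSDART00000135829, had its highest values at 10 hpf, with 2.33 TPM in rbm14-MO and 4.93 TPM in ctrl-MO embryos at 24 hpf, against 72.6 and 73.3 TPM at 10 hpf. In srsf2a the main share was 86.8% in rbm14-MO and 90.1% in ctrl-MO embryos at 24 hpf, and 94.8% and 98.0% at 10 hpf. Between morpholinos at 24 hpf srsf1a and srsf1b differed in the other direction, with main shares 0.02 and 3.69 points higher in rbm14-MO embryos. Between the stages several shares were larger at 24 hpf. In ctrl-MO embryos the main transcript held 84.9% at 24 hpf and 68.3% at 10 hpf in srsf6a, 76.9% and 66.3% in srsf10a, and 45.5% and 38.1% in srsf7a. In rbm14-MO embryos it held 83.3% and 80.0% in srsf6a, but 66.4% and 79.7% in srsf10a and 41.3% and 51.0% in srsf7a.

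**Figure D4:**
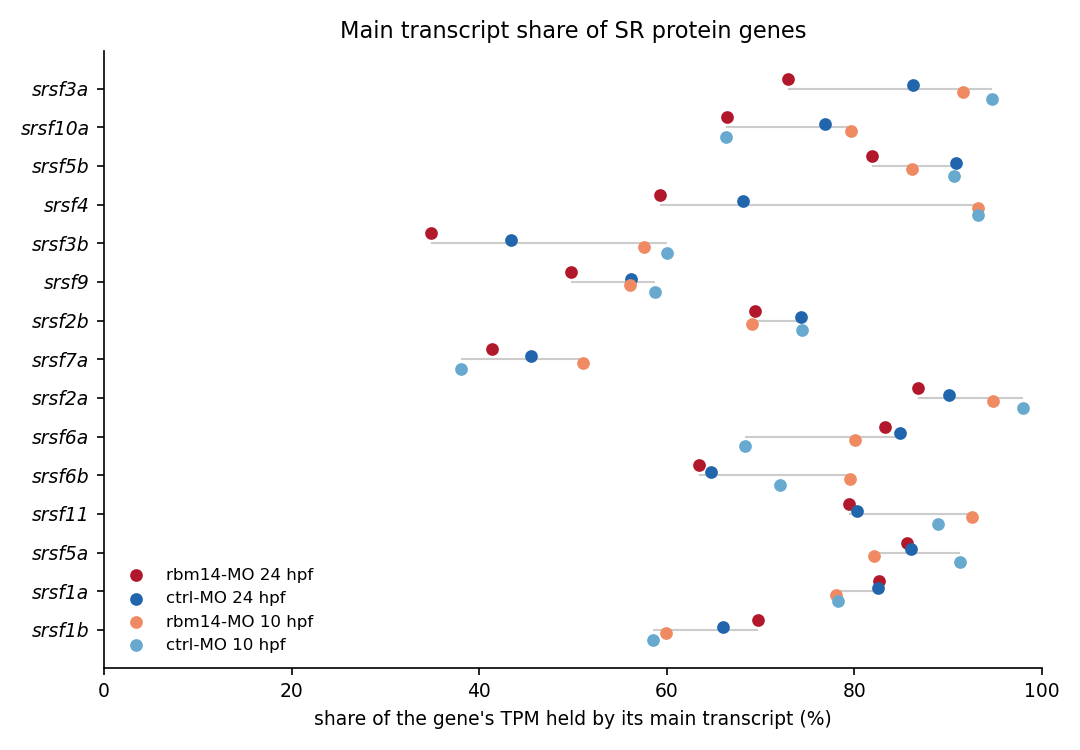
Share of each SR gene's TPM held by its main transcript, in percent, in the 4 libraries, for the 15 genes with several transcripts and at least 5 TPM in every library, ordered by the difference between rbm14-MO and ctrl-MO embryos at 24 hpf. The rbm14-MO point at 24 hpf lies left of the ctrl-MO point in 13 of 15 genes.

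Outside the SR family the largest share differences between morpholinos were those of hnrnpr and sf3b2. The hnrnpr transcript ENSDART00000159815 was listed at 0 in rbm14-MO embryos at 24 hpf and had 50.9 TPM in ctrl-MO embryos, and at 10 hpf it had 43.1 TPM in rbm14-MO and 124 TPM in ctrl-MO embryos. The main transcript ENSDART00000160560 had 67.6 TPM in rbm14-MO and 78.4 TPM in ctrl-MO embryos at 24 hpf, against 173 and 129 TPM at 10 hpf. Most of the TPM difference in hnrnpr at 24 hpf lay in 1 transcript, and with the main transcript alone the ratio was −0.83 and no longer called. A value of 0 may be a failed estimate. The sf3b2 transcript ENSDART00000015873 had 9.55 TPM in rbm14-MO and 11.7 TPM in ctrl-MO embryos at 24 hpf, and 28.1 and 3.38 TPM at 10 hpf, so that the main transcript held 71.8% in rbm14-MO and 96.3% in ctrl-MO embryos at 10 hpf.

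**Figure D5:**
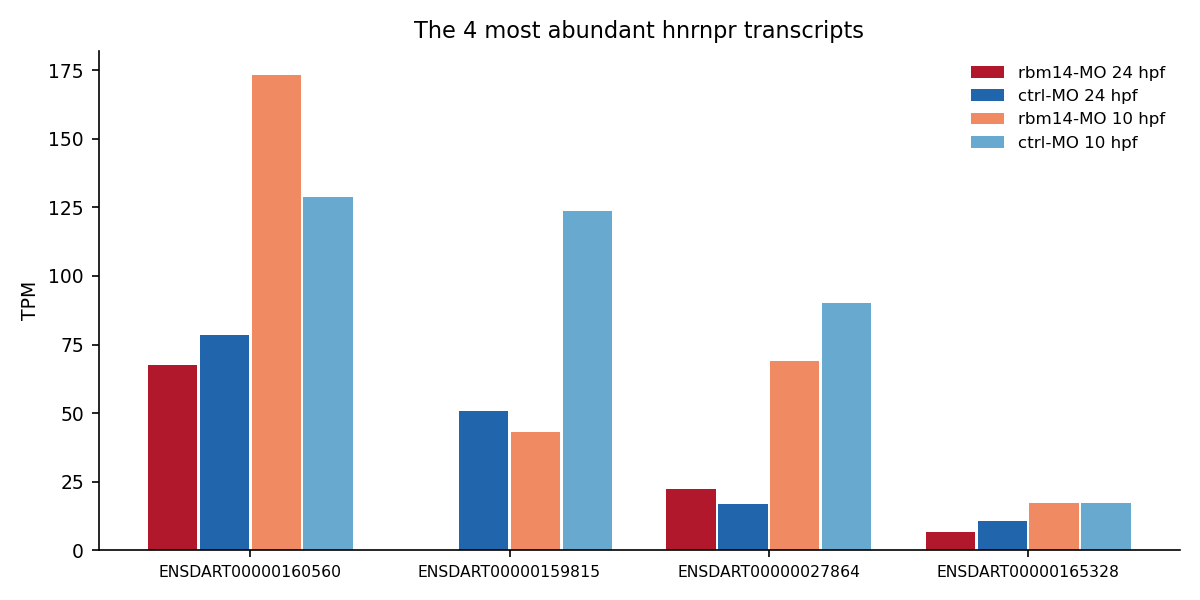
TPM of the 4 most abundant hnrnpr transcripts in the 4 libraries, with 1 bar per library. ENSDART00000159815 has no bar in rbm14-MO embryos at 24 hpf, where it is listed at 0, and is lower in rbm14-MO than in ctrl-MO embryos at both stages, while ENSDART00000160560 is lower in rbm14-MO embryos at 24 hpf and higher at 10 hpf.

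Zebrafish keep duplicates of many of these genes, and 14 pairs of paralogs were compared. Near-identical stretches may let the authors' estimate split reads between copies, so the shares within a pair are uncertain. The pair that parted most was srsf6a and srsf6b at 24 hpf. Of their joint TPM srsf6a held 28.3% in rbm14-MO and 52.9% in ctrl-MO embryos, against 45.4% and 45.9% at 10 hpf, and their log2 ratios at 24 hpf were −1.38 and 0.13. The other pair apart by more than 0.5 at 24 hpf was srsf2a and srsf2b, which differed by 0.51, and at 10 hpf 5 pairs were. These were hnrnpua and hnrnpub (0.73 and −0.06), snrpd3 and snrpd3l (1.16 and 0.51), srsf10a and srsf10b (−0.54 and 0.07), srsf7a and srsf7b (0.39 and −0.20), and hnrnpa1a and hnrnpa1b (−0.05 and 0.51). The value of srsf7b rests on 0.46 TPM in rbm14-MO and 0.71 TPM in ctrl-MO embryos, under the 1 TPM used for the medians, and is largely set by the pseudocount. Pairs were often unequal in level. The copy srsf1a held between 96.5% and 97.9% of the srsf1 pair in all 4 libraries, and hnrnpa1a held between 0.89% and 1.80% of the hnrnpa1 pair. Over the stages hnrnpa0a gained on hnrnpa0b, with 62.5% of their TPM in rbm14-MO and 58.1% in ctrl-MO embryos at 24 hpf, against 32.5% and 35.8% at 10 hpf.

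Further genes of the splicing pathway were taken from lists of other spliceosome proteins, exon junction and SR-related proteins, SR protein kinases, snRNP assembly factors and tissue splicing regulators. Over all symbols 22.1% were called lower at 24 over 10 hpf in rbm14-MO and 23.1% in ctrl-MO embryos, and 35.4% and 29.6% higher. Between morpholinos 8.85% were lower and 7.01% higher at 24 hpf, and 5.56% and 3.57% at 10 hpf. Counts for these lists use the main scaling only. For the members the order of the morpholino groups between the stages turned without rescaling (51 lower in rbm14-MO and 57 in ctrl-MO embryos). Of all symbols, 29.7% and 55.7% then had ratios below 0. Of 52 measured genes for other core spliceosome proteins, 1 was lower in rbm14-MO embryos at 24 hpf, the minor spliceosome gene snrnp35 (5.39 and 7.68 TPM, −1.07), and none was higher. At 10 hpf none of 55 was called. The medians of this list were −0.07 at 24 hpf and 0.44 at 10 hpf, beside 0.08 and −0.06 for all symbols. For all symbols at or above 20 TPM the medians were −0.07 at 24 hpf and 0.20 at 10 hpf. At or above 100 TPM they were −0.35 and 0.35. At 24 over 10 hpf 43 of 55 were lower in rbm14-MO and 24 of 55 in ctrl-MO embryos, and in each group 1 was higher, lsm4, for a ring protein of U6. The U5 helicase gene snrnp200 had 24.8 TPM at 24 hpf and 172 TPM at 10 hpf in ctrl-MO embryos (−2.25). Exon junction and SR-related genes were lower at 24 hpf in 14 of 16 in rbm14-MO and 10 of 15 in ctrl-MO embryos, and 1, thrap3a, was higher in rbm14-MO embryos (2.59). Between morpholinos tra2a, for an SR-like regulator, was the one called, as lower at 24 hpf (65.8 TPM in rbm14-MO and 84.9 TPM in ctrl-MO embryos), just past the 2-fold limit. The SR kinase and import list had no call between morpholinos, and at 24 hpf 5 of 11 genes were lower and 1 was higher in rbm14-MO embryos and 2 of 12 were lower in ctrl-MO embryos.

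The genes that assemble snRNPs had medians of 0.38 in rbm14-MO and 0.29 in ctrl-MO embryos between the stages, beside 0.63 and 0.21 for all symbols. In ctrl-MO embryos 3 of 14 were higher at 24 hpf, gemin6 and gemin7 of the SMN complex and the Sm chaperone gene clns1a, and 2 were lower. In rbm14-MO embryos 3 of 13 were higher and 3 lower. Both higher counts are below the shares of all symbols called higher given above. Between morpholinos at 24 hpf 2 of 13 were called, both as lower. The gene gemin7 had 32.0 TPM in rbm14-MO and 58.8 TPM in ctrl-MO embryos (−1.50), and gemin6 had 28.0 and 37.6 TPM (−1.05). Tissue and other splicing regulators were lower at 24 hpf in 20 of 38 genes in rbm14-MO and 17 of 38 in ctrl-MO embryos. They were higher in 4 and 3, among them rbfox1l, a regulator of muscle exons, with 74.6 and 0.20 TPM at 24 and 10 hpf in rbm14-MO and 100 and 0.07 TPM in ctrl-MO embryos. Between morpholinos at 24 hpf 2 of 37 were called, rbfox1l (−1.06) and khsrp (−1.04), both as lower, beside 8.85% of all symbols. The median of this list was 0.17, beside 0.08 for all symbols. At 10 hpf none of 37 was called. Every 24 hpf call between morpholinos in these gene lists passed the 2-fold limit by less than the 0.64 shift that the scaling subtracted.

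Levels of cell type markers are given beside these comparisons, and their part in the results was not tested. The shares of all symbols called are those given above for the gene lists, and the marker counts use the main scaling only. The 10 proliferation markers, DNA replication and cycle genes, summed to 1341 TPM in rbm14-MO and 1674 TPM in ctrl-MO embryos at 24 hpf, with 2 lower and none higher. At 10 hpf they summed to 3111 TPM in rbm14-MO and 3212 TPM in ctrl-MO embryos, with none called. At 24 over 10 hpf 7 of 10 were lower in rbm14-MO and 2 of 10 in ctrl-MO embryos. The 8 skeletal muscle markers summed to 7544 TPM in rbm14-MO and 12767 TPM in ctrl-MO embryos at 24 hpf, against 16.7 and 29.5 TPM at 10 hpf. The 8 erythroid markers summed to 3320 TPM in rbm14-MO and 10959 TPM in ctrl-MO embryos at 24 hpf, against 9.29 and 27.0 TPM at 10 hpf. At 24 hpf 6 of the 8 muscle and 7 of the 8 erythroid markers were lower in rbm14-MO embryos. The 7 matched neuron markers summed to 112 TPM in rbm14-MO and 59.6 TPM in ctrl-MO embryos at 24 hpf, against 1.34 and 1.47 TPM at 10 hpf. The higher sum at 24 hpf came from elavl3, with 78.5 TPM in rbm14-MO and 23.9 TPM in ctrl-MO embryos, which was called higher, while the median ratio of the list was −0.59. At 10 hpf 3 erythroid and 2 neuron markers were listed at 0 in rbm14-MO embryos and none in ctrl-MO embryos.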

How the data were processed

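The authors deposited TPM per Ensembl transcript, 57596 in each of 4 libraries. The columns hold decimals with the same total in each library. The tools listed, per the submitters' processing notes and without roles, are HISAT2 2.0.1, HTSeq 0.6.1 and Trimmomatic 0.30, with genome build GRCz10. How the transcript values, annotation and strand were obtained is not given in the sources used here. Depth is unknown, which leaves counting error unmeasured.

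TPM was summed by symbol (Python 3.11.15, pandas 2.3.3). Each pair of libraries was scaled by a trimmed, unweighted mean of the log2 ratios of symbols with at least 1 TPM in both, trimming 30% of ratios and 5% of levels at each end. The shifts removed were 0.64 and −0.25 for rbm14-MO over ctrl-MO at 24 and 10 hpf, and 0.37 and −0.52 for 24 over 10 hpf in rbm14-MO and ctrl-MO embryos. A pseudocount of 0.5 TPM was added, and a call needed 2-fold and 5 TPM. Called shares of all symbols use those with 5 TPM in the higher library. Medians use genes with at least 1 TPM in either library. The scaling and calls were tested on simulated data with a uniform shift and noise that did not depend on level. That simulation held no trend of ratios with level, so it does not show how the scaling performs where ratios change with level.

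The members and lists were chosen with earlier results of these data known. Of 200 listed genes 188 matched a symbol. Named with ratios are members that were called (at most 12 per comparison, by size), the extremes and the most abundant of each subfamily, and paralog pairs. Alternatives were other scalings, pseudocounts, floors, fold limits and the main transcript in place of the sum. Loess scaling and the counts of main transcript shares and of signs under other scalings were added after the data were seen.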

Additional observations from a re-analysis of the deposited data

Results flagged for a closer look

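Results are listed here because the rbm14-MO over ctrl-MO ratio had opposite signs at 24 and at 10 hpf. With 1 library per group the difference between the stages was not tested, and the signs depend on the scaling. Without rescaling most of the 24 hpf medians turn positive. The median log2 ratio was −0.23 at 24 hpf and 0.38 at 10 hpf over the members. By subfamily it was −0.70 and 0.28 for SR genes, −0.20 and 0.33 for hnRNP genes, −0.45 and 0.54 for Sm core genes, −0.49 and 0.41 for U1 and U2 snRNP protein genes, and −0.0949 and 0.61 for U2AF genes. Among called members the ratios at 24 and 10 hpf were −1.32 and 0.02 for hnrnpr, −0.0931 and 1.16 for snrpd3, −1.01 and 0.03 for srsf5a, and −1.38 and 0.27 for srsf6a. At 10 hpf hnrnpr and srsf5a were at −0.23 and −0.22 without rescaling and at −0.30 and −0.31 with loess, so that their signs were then the same at both stages. The 24 hpf ratio of snrpd3 was 0.54 without rescaling and 0.13 with loess, and the 10 hpf ratio of srsf6a was −0.04 with loess. The medians of SF3A or SF3B genes and of PRPF genes, and the ratios of prpf3 and prpf4ba, were positive at both stages. At 24 hpf 4 of 9 SF3A or SF3B genes and 4 of 12 PRPF genes had ratios below 0. With the most abundant transcript the SF3A and SF3B median at 24 hpf was −0.0673.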

How the results depend on the processing

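No paired analysis was possible because each group has 1 library, and for the same reason no replicate could be left out. The lower counts between the stages stayed within 1.5 times of 62 in rbm14-MO and 39 in ctrl-MO embryos under all 9 alternatives, though their order turned without rescaling (51 and 57), and so did the counts of genes with a lower main transcript share under both of theirs. For those shares, taking the main transcript from ctrl-MO embryos at 10 hpf keeps the weight of that stage. For rbm14-MO over ctrl-MO at 24 hpf no rescaling gave 4 higher and 0 lower, a pseudocount of 0.1 TPM gave 1 higher, a 1.5-fold limit gave 2 higher and 18 lower, and the most abundant transcript gave 5 lower, with 1 of the 3 called genes still among them. At 10 hpf no rescaling and loess each gave 1 higher and a 1.5-fold limit 16 higher. The shares of all symbols called under these alternatives are not given here, so these counts have no background beside them. Higher counts at 24 over 10 hpf were 2 in ctrl-MO embryos with no floor, and 0 with a 20 TPM floor and 3 with no floor in rbm14-MO embryos. The member median at 24 hpf between morpholinos was 0.38 without rescaling, −0.0042 with loess, −0.24 and −0.19 with pseudocounts of 0.1 and 5 TPM, and −0.34 and −0.20 with a 20 TPM floor and none. At 10 hpf it was 0.13 without rescaling and with loess, 0.39 and 0.37 with the pseudocounts, 0.39 with the 20 TPM floor and 0.40 with the most abundant transcript. For 24 over 10 hpf in rbm14-MO embryos it was −1.31 without rescaling, −1.67 with median of ratios, −1.07 with loess, −1.69 and −1.63 with the pseudocounts, −1.70 and −1.67 with the floors and −1.77 with the most abundant transcript. In ctrl-MO embryos it was −1.61 without rescaling, −0.91 with loess, −1.09 and −1.02 with the pseudocounts, −1.10 with the 20 TPM floor and −1.06 with the most abundant transcript. Subfamily medians at 24 hpf turned without rescaling to 0.44 for hnRNP, 0.19 for Sm core, 0.14 for U1 and U2 snRNP and 0.54 for U2AF genes, with loess to 0.14 for hnRNP and 0.0785 for U2AF genes, and with the most abundant transcript to −0.0673 for SF3A and SF3B genes. At 10 hpf the SR median was −0.0305 with loess. The cause of these moves was not tested. Main transcripts differed in 1 member at 24 hpf between morpholinos and in 1 in ctrl-MO embryos over the stages at 10 percentage points, and at no minimum in 1 each there and in rbm14-MO embryos. Counting share differences of 20 points with or without another main transcript gave 1 at 24 hpf and 2 in each other comparison. Unknown depth limits every low value.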

Other observations

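The symbol rule is in lower case, and 2 further symbols match it only in upper case. HNRNPUL1 (1 of many) had 71.1 TPM in rbm14-MO and 50.0 TPM in ctrl-MO embryos at 24 hpf, against 128 and 135 TPM at 10 hpf. HNRNPUL2 had 6.83 TPM in rbm14-MO and 2.19 TPM in ctrl-MO embryos at 24 hpf, against 9.32 and 11.0 TPM at 10 hpf. They were left out of every count above.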
